A study of Homo sapiens with 9 samples.

Results

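The comparison described here sets MCF10A cells that carried the RND1 hairpin sh-35 against MCF10A cells that carried a scramble control, with 3 arrays of each. These are 6 of the 9 arrays of the study, chosen by their sample titles, and the other 3 arrays hold cells with a second RND1 hairpin, sh-34. All 3 groups had received lentivirus and had been kept in puromycin so that only infected cells grew, so infection and selection are common to sh-35, sh-34 and scramble cells. The labels do not give the sequence of either hairpin, the time between infection and harvest, or whether infected cells were kept as a pool or as clones. Separate cultures or infections are not stated for the samples of a group, so the p-values cover the spread between these samples alone, and that spread may be technical. Total RNA was hybridized as biotinylated cRNA to an Illumina bead array, on which each probe reads 1 transcript region. A probe was kept where its detection p, the chance of such a signal from the negative control beads, was under 0.01 on at least 3 of the 9 arrays. The brightest probe of each gene then gave 8931 genes.

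RND1 belongs to the Rnd group of small GTPases, whose members stay bound to GTP and are therefore controlled by their amount rather than by an on and off cycle. Rnd proteins loosen actin stress fibres and bind the cytoplasmic part of plexins, the receptors of semaphorins, where they take part in switching on a GTPase-activating function directed at Ras and Rap proteins. MCF10A is a non-tumorigenic line of human breast epithelium that grows as cobblestone sheets held together by E-cadherin and needs epidermal growth factor to divide. The comparison asks which transcripts differ once such cells carry sh-35.

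The target itself could not be read. The only named RND1 probe gave signals of 27.7, 37.9 and 43.1 in the sh-35 arrays, against 33.8, 49.6 and 34.4 in the scramble arrays. Its detection p was 0.910, 0.527 and 0.349 with sh-35, against 0.767, 0.165 and 0.582 with scramble. All 6 values are at the level of the negative controls and overlap, so the array gives no check that sh-35 lowered RND1. RND2, the second member of the Rnd group, was also below background, with signals of 65.0 to 77.1 in sh-35 arrays and 62.4 to 80.4 in scramble arrays. RND3, the third member, was well measured at 9.81, 9.97 and 9.97 in the sh-35 arrays, against 10.72, 10.77 and 10.63 in the scramble arrays. The groups did not overlap, and RND3 fell by 0.79 on the log2 scale (−1.03 to −0.55, 95% interval; limma adjusted p = 0.00014).

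The labelled cell type was set against marker genes. Of 8 markers of basal-like breast epithelium, 5 had a named probe (KRT5, KRT14, EGFR, CDH3 and ITGB4), and all 5 were above background on all 6 arrays. Their summed signal, taken here and below before normalization, was 15135 to 16902 in sh-35 arrays and 22587 to 25558 in scramble arrays. Of 7 markers of luminal or hormone-responsive breast epithelium, ESR1, PGR, KRT19 and GATA3 were above background on none of the 6 arrays, the keratins KRT8 and KRT18 on all 6, and FOXA1 on the 3 scramble arrays and no sh-35 array. The summed signal of these 7 was 894.5 to 1017 in sh-35 arrays and 1139 to 1323 in scramble arrays. Of 8 fibroblast markers, 5 were undetected on all 6 arrays, COL1A2, COL3A1 and PDGFRB among them. DCN, a matrix proteoglycan, was above background on all 6 and rose by 0.53 on the log2 scale, COL1A1 was above it on 1 sh-35 array and 0 scramble arrays, and PDGFRA on 1 sh-35 array and 3 scramble arrays. The summed signal of these 8 was 6325 to 6827 in sh-35 arrays and 4583 to 5920 in scramble arrays. COL1A1, COL1A2, COL3A1, COL6A3, LUM and PDGFRB each read at most 136 on any array, so this sum rests mainly on DCN. Of 6 endothelial markers 5 were undetected, VWF and CDH5 among them, and PECAM1 was above background on 2 sh-35 arrays and 0 scramble arrays. Of 6 leukocyte markers with a named probe 5 were undetected, PTPRC and CD3E among them, and CD68, a lysosomal protein known from macrophages, was above background on all 6 arrays. Of 5 adipocyte markers 4 were undetected, ADIPOQ among them, and LEP was above background on 3 sh-35 arrays and 2 scramble arrays. All 5 neural markers, GFAP among them, were undetected. In a bulk RNA sample, fewer cells that express a gene and less of its RNA per cell cannot be told apart.

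Between 12009 and 12668 probes were above background on the sh-35 arrays and 11473 to 12902 on the scramble arrays. After background correction and quantile normalization the 2 groups correlated by 0.960 to 0.966 across genes, and arrays of the same group by 0.993 to 0.994. Levels are given below as normalized log2 signal, where 1 unit is a 2-fold difference, and each change is sh-35 minus scramble in 1 limma model of all 9 arrays. At an adjusted p under 0.05, 3731 genes changed, 41.8% of those tested, with 1821 (20.4%) higher and 1910 (21.4%) lower. The median absolute change of these was 0.49, and only 283 rises and 173 falls reached a fitted 2-fold. The smallest changes called were near 0.20, among them rises of MMS19 (+0.19) and ABCB6 (+0.21) and falls of RFX5 (−0.19) and TCEAL4 (−0.19). These 4 calls were lost without any 1 of the 6 arrays, at an adjusted p of 0.0549 to 0.132. In 51.9% of the genes tested, the 3 sh-35 values did not overlap the 3 scramble values. With about 2 in every 5 genes called, the count of called members in a gene list is read against these shares. The median change over all genes tested was −0.02.

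The deepest fall was that of TAGLN, which encodes transgelin, an actin-binding protein of contractile cells. Its log2 signal was 9.15, 9.28 and 9.27 in the sh-35 arrays, against 12.47, 12.64 and 12.63 in the scramble arrays. The 6 values leave a gap of about 3 units, and the change was −3.34 (SE 0.09; adjusted p = 1.4e-09). TMEM9B, a transmembrane protein gene, read 8.41, 8.02 and 8.14 in the sh-35 arrays, against 10.78, 10.74 and 10.77 in the scramble arrays. IL1B, the inflammatory cytokine interleukin-1 beta, read 10.12, 9.75 and 9.96 in the sh-35 arrays, against 12.23, 12.31 and 12.43 in the scramble arrays, again with no overlap. The changes were −2.57 (SE 0.11) for TMEM9B and −2.38 (SE 0.10) for IL1B. CRB3, the Crumbs protein that marks the apical membrane of epithelia, read 7.08, 6.97 and 7.18 in the sh-35 arrays, against 9.23, 9.35 and 9.30 in the scramble arrays. HBEGF, a growth factor that activates the EGF receptor, read 7.85, 7.98 and 8.06 in the sh-35 arrays, against 9.83, 10.03 and 10 in the scramble arrays. Both were lower in every sh-35 array, with changes of −2.21 (SE 0.09) for CRB3 and −1.99 (SE 0.09) for HBEGF. A second CRB3 probe fell by less in the authors' deposited table, with a fold change of −1.67 against −3.95 for the probe used here. Further large falls were those of FOLR3, a secreted folate receptor (−2.11 (SE 0.13)), PPIAL4A, a member of a family of near-identical cyclophilin copies that the probe may not separate (−2.03 (SE 0.10)), EPCAM, an epithelial adhesion molecule (−1.88 (SE 0.08)), and CDH1, which encodes E-cadherin (−1.85 (SE 0.09)). Another 6 of the 15 deepest falls ended below background in all 3 sh-35 arrays, so that only a bound can be given, set against the lowest signal called above background. EPHA1, an ephrin receptor, was at least 1.8-fold lower (measured means 5.60 in sh-35 cells and 7.47 in scramble cells; adjusted p = 8.3e-06). MCCC2, a subunit of the carboxylase that breaks down leucine, was at least 2.11-fold lower (measured means 5.91 in sh-35 cells and 7.69 in scramble cells; adjusted p = 6.3e-07). The bounds were at least 1.69-fold lower for IGFL1, a secreted insulin growth factor-like protein gene, at least 1.5-fold lower for CALML3, a calmodulin-like protein of epithelia, at least 1.48-fold lower for the hair keratin gene KRT34 and at least 1.45-fold lower for SERPINB13.

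**Figure D1:**
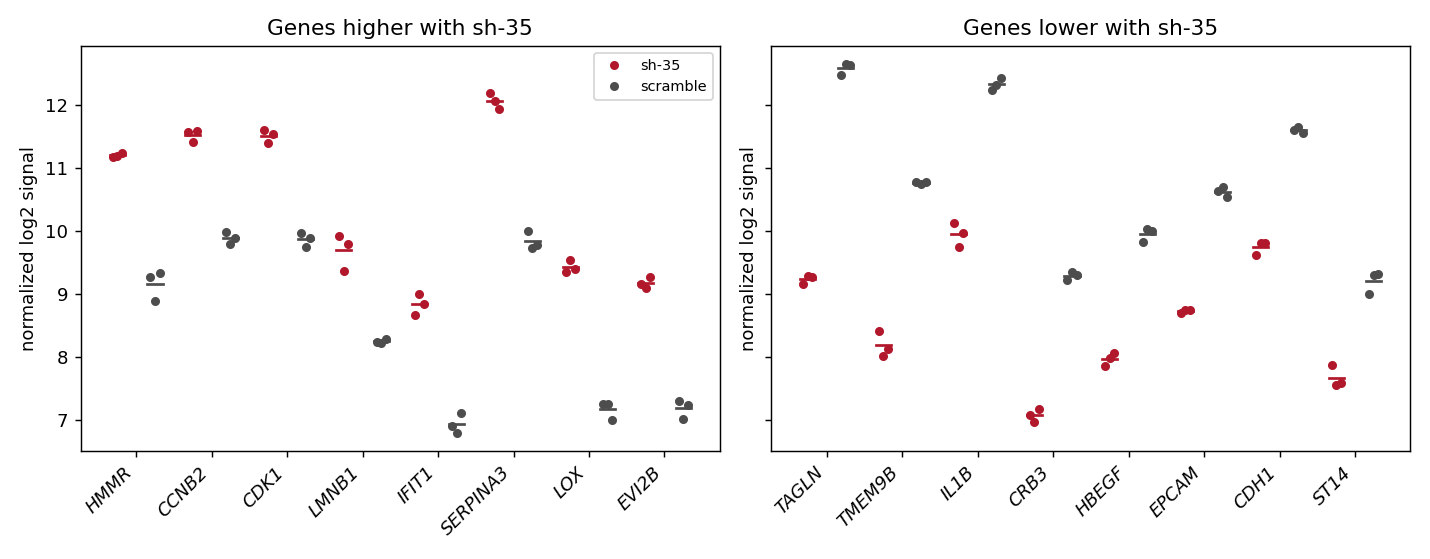
Normalized log2 signal of 8 genes that rose and 8 that fell, with each array as a point (sh-35 red, scramble grey) and the mean of 3 arrays as a bar. The 3 sh-35 points of each gene lie entirely above or entirely below its 3 scramble points, as for TAGLN at 9.15 to 9.28 in sh-35 arrays and 12.47 to 12.64 in scramble arrays.

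Among the rises, the leading gene was SERPINA5, the protein C inhibitor, which was below background in all scramble arrays and was at least 3.88-fold higher (measured means 8.60 in sh-35 cells and 5.56 in scramble cells; adjusted p = 3.2e-08). IFI44L, an interferon-induced gene, was at least 3.02-fold higher (measured means 8.24 in sh-35 cells and 5.46 in scramble cells; adjusted p = 1.1e-07). LOX, which encodes lysyl oxidase, the enzyme that cross-links collagen and elastin, read 9.35, 9.54 and 9.40 in the sh-35 arrays, against 7.26, 7.26 and 7.01 in the scramble arrays, a change of +2.25 (SE 0.10; adjusted p = 6.1e-08). SERPINA3, the acute-phase protein alpha-1-antichymotrypsin, read 12.18, 12.05 and 11.92 in the sh-35 arrays, against 9.99, 9.72 and 9.78 in the scramble arrays. Both genes were separated by about 2 units between the groups. KLRC3, a natural killer receptor gene whose close relatives its probe may not tell apart, rose by +2.22 (SE 0.10) from a level above background on 1 scramble array only. HMMR, a receptor for hyaluronan that also binds the spindle, rose by +2.03 (SE 0.12), EVI2B, a transmembrane protein gene, by +1.99 (SE 0.10) and FPR1, a receptor for formylated peptides, by +1.94 (SE 0.08). The remaining 7 of the 15 largest rises started below background. TRIB2, a pseudokinase gene, was at least 3.17-fold higher, PSMB9, a catalytic subunit of the immunoproteasome, at least 2.54-fold higher, and APOBEC3B, a cytidine deaminase that acts on single-stranded DNA, at least 2.5-fold higher. TGFB2, a ligand of the TGF-beta family, was at least 1.93-fold higher, RDH16, a retinol dehydrogenase, at least 1.55-fold higher, MAMDC2 at least 1.38-fold higher, and CDH11, a cadherin of mesenchymal cells, at least 1.23-fold higher. In all, 92 genes were above background on all 3 sh-35 arrays and on no scramble array, and 52 genes on all 3 scramble arrays and on no sh-35 array.

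Genes of cell division were higher with sh-35 across nearly every stage. Over the cell cycle lists, 154 of 177 tested genes rose, 5 fell and 18 did not pass, with a median change of +0.88, against 20.4% of all genes higher and a median of −0.02. The medians differed between the stages that the lists stand for. G1 to S regulators had a median of +0.23, the licensing list +0.85, and spindle and cytokinesis genes +1.36. The plot of cell division genes by role shows each member.

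Before a chromosome is copied, the origin recognition complex, CDT1 and the MCM2 to MCM7 helicase load onto DNA, which licenses the origin. All 11 tested licensing genes rose, with a median of +0.85 (+0.77 with ORC1, which was below background in scramble, at its bound). CDT1 read 10.12, 10.05 and 9.95 in the sh-35 arrays, against 8.43, 8.33 and 8.58 in the scramble arrays, a change of +1.60 (SE 0.09; adjusted p = 1.8e-07). The MCM helicase subunits rose by amounts from +0.55 for MCM6 to +1.16 for MCM4, and GMNN, which encodes the CDT1 inhibitor geminin, rose by +0.85 (SE 0.14). Of 25 genes of the replication fork, 21 rose, 1 fell and 3 did not pass. PRIM1, the primase that starts each new strand, rose by +1.35 (SE 0.10), TIMELESS, a fork protection gene, by +1.23 (SE 0.08), LIG1, which joins Okazaki fragments, by +0.99 (SE 0.17) and PCNA, the sliding clamp, by +0.48 (SE 0.08). RPA1, a subunit of the single-strand binding complex, was the member that fell (−0.27 (SE 0.08)), whereas its partners RPA2 (+0.42) and RPA3 (+0.70) rose. All 6 tested genes of deoxynucleotide supply rose, among them TK1 (+1.02 (SE 0.09)), TYMS (+0.99 (SE 0.08)) and RRM2 (+0.60 (SE 0.10)).

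The regulators that lead into S phase were mixed. Of 15 genes, 8 rose, 2 fell and 5 did not pass. E2F2, an activating E2F factor, read 8.99, 8.90 and 8.96 in the sh-35 arrays, against 7.54, 7.62 and 7.62 in the scramble arrays, with no overlap and a change of +1.36 (SE 0.08; adjusted p = 2.6e-07). RBL1, which encodes the pocket protein p107, rose by +0.98 (SE 0.11), and E2F7, a repressive E2F factor, by +0.83 (SE 0.09). The 3 D-type cyclins, which partner CDK4 and CDK6, did not move as one. CCND3 read 11.49, 11.31 and 11.21 in the sh-35 arrays, against 12.21, 12.25 and 12.18 in the scramble arrays, a change of −0.87 (SE 0.09; adjusted p = 1.7e-05). CCND2 changed by −0.29 (SE 0.08), a call that was lost without sh-35 replicate 1 (adjusted p = 0.061), and CCND1, the cyclin D gene most studied in breast epithelium, did not pass at +0.09 (SE 0.08). Among CDK inhibitors, CDKN1A, which encodes p21, fell (−0.53 (SE 0.07)), while CDKN1B, which encodes p27, rose (+1.05 (SE 0.10)) and CDKN3, a phosphatase that acts on CDKs, rose (+1.63 (SE 0.09)). CDKN2A, CDKN2B, CDKN2C and CDKN1C were not tested.

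**Figure D2:**
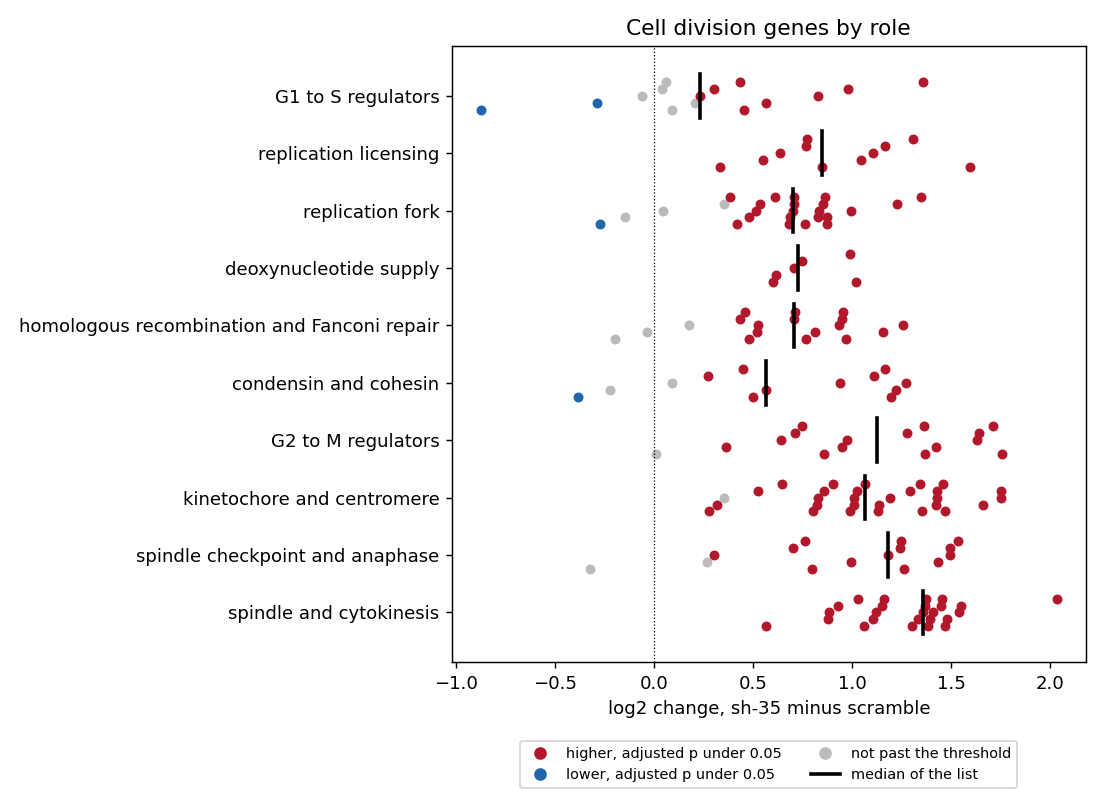
Log2 change, sh-35 minus scramble, of each tested gene in 10 lists of cell division roles, with higher calls in red, lower calls in blue, genes not past the threshold in grey and the list median as a bar. Medians run from +0.23 for G1 to S regulators to +1.36 for spindle and cytokinesis genes.

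Entry into mitosis is driven by CDK1 with cyclin B, held back by WEE1 and PKMYT1 and released by CDC25 phosphatases. Of 16 genes, 15 rose, 0 fell and 1 did not pass, with a median of +1.12. CDK1 read 11.60, 11.39 and 11.54 in the sh-35 arrays, against 9.96, 9.74 and 9.89 in the scramble arrays, and CCNB2, a cyclin B, 11.56, 11.41 and 11.58 in the sh-35 arrays, against 9.98, 9.80 and 9.88 in the scramble arrays. The groups did not overlap for either gene, and the changes were +1.64 (SE 0.09; adjusted p = 2.6e-07) and +1.63 (SE 0.08; adjusted p = 1.5e-07). Drivers and brakes rose alike, with WEE1 at +1.75 (SE 0.09), CDC25C at +1.71 (SE 0.10) and PKMYT1 at +0.95 (SE 0.16). CDC25B was the member that did not pass, at +0.01 (SE 0.13), and AURKA, the Aurora A kinase gene, rose by only +0.36 (SE 0.08). FOXM1, a transcription factor of G2 genes, rose by +0.86 (SE 0.09).

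Kinetochore and centromere genes, which build the attachment of chromosomes to the spindle, had 28 of 29 members higher and a median of +1.06 (+1.01 with the 4 members that were below background in scramble at their bounds). CENPF rose by +1.75 (SE 0.10), SPC24, an NDC80 complex subunit, by +1.75 (SE 0.14) and CENPA, the centromeric histone H3, by +1.66 (SE 0.11). Where only probes above background on all 9 arrays were kept, 18 members were tested and all 18 rose. Of the spindle checkpoint and anaphase genes, 13 of 15 rose, led by TTK (+1.53 (SE 0.12)), UBE2C (+1.49 (SE 0.08)) and BIRC5, which encodes survivin (+1.49 (SE 0.09)). MAD1L1 (−0.32 (SE 0.13)) and ESPL1 (+0.27 (SE 0.12)) did not pass. All 25 tested genes of the spindle and of cytokinesis rose, from SPAG5 at +0.56 (SE 0.10) to HMMR. HMMR read 11.17, 11.18 and 11.23 in the sh-35 arrays, against 9.26, 8.89 and 9.34 in the scramble arrays. The per-array median of this list, relative to the scramble mean of each gene, was +1.30 to +1.35 in the sh-35 arrays and −0.04 to +0.06 in the scramble arrays. In the list of condensin and cohesin, the condensin gene NCAPD2 rose by +1.27 (SE 0.11) and the condensin gene NCAPG2 by +1.22 (SE 0.11), while STAG2, a cohesin subunit, fell (−0.38 (SE 0.09)) and its relative STAG1 did not pass (+0.09 (SE 0.10)). Of 18 genes of homologous recombination and the Fanconi pathway, 15 rose, among them RAD51AP1 (+1.25 (SE 0.08)), EXO1 (+1.16 (SE 0.08)) and BRCA1 (+0.71 (SE 0.13)).

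The cell cycle genes homology region, or CHR, is a short promoter element of G2 and mitosis genes that is read by the MuvB complexes, often with CCAAT boxes bound by NF-Y upstream of it. E2F sites are known from S phase genes. Both were looked up in RefSeq promoters of GRCh38.p14, which cover 250 bases before to 50 after each annotated start and were given for 7434 of the 8931 genes tested. The 3 mitotic promoters printed first show the CHR, letters TTTGAA, and the CCAAT box, letters CCAAT, in capitals on either strand, and the last 2 show the E2F site, letters TTTCCCGC or their reverse complement. They stand for genes that rose in the lists above, HMMR (chr5:163460452-163460641, plus strand), CCNB2 (chr15:59104996-59105155, plus strand), KIF18A (chr11:28108147-28108276, minus strand), CDT1 (chr16:88803669-88803798, plus strand) and RFC3 (chr13:33818029-33818158, plus strand).
HMMR: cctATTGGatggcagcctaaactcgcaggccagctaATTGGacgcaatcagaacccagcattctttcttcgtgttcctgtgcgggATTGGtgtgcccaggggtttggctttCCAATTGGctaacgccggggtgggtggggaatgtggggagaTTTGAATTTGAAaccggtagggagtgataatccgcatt
CCNB2: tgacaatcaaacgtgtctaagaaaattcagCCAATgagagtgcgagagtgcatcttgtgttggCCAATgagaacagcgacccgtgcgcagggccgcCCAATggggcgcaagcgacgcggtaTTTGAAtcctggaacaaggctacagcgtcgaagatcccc
KIF18A: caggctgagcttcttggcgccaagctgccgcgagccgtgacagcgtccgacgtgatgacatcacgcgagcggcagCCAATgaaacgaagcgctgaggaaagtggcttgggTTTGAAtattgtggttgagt
CDT1: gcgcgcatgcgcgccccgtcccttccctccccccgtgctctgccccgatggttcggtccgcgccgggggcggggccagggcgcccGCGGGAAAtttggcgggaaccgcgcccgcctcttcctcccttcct
RFC3: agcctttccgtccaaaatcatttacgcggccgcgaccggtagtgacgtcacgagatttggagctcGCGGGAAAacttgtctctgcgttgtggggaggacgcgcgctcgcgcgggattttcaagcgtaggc

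In CCNB2 the CHR began 29 bases before the start, with CCAAT boxes at 120, 87 and 54 bases before it. In HMMR adjoining CHR copies began 28 and 22 bases before the start. Among the 66 genes of the G2 and mitosis lists that rose and had a promoter in the table, 40 of 66 (60.6%) held the CHR letters, against 9.78% of all genes tested and 15.2% of all 35116 promoters in the table. The CCAAT letters were in 46 of 66 (69.7%), against 37.6% of all genes tested and 34.6% of all promoters. Among the replication genes that rose, 9 of 31 (29%) held the E2F letters, against 2.73% of all genes tested and 1.63% of all promoters, and 1 of 31 (3.23%) held the CHR letters. Most tested members of these lists rose, and the share among members that did not rise was not counted. The shares therefore describe the lists, and whether the letters go with the rise was not tested. A match of letters is a description of these windows, and binding was not measured.

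Of 27 genes of chromatin and the nuclear lamina, 20 rose, 1 fell and 6 did not pass, with a median of +0.63. LMNB1, which encodes the nuclear lamina protein lamin B1, read 9.91, 9.37 and 9.79 in the sh-35 arrays, against 8.24, 8.23 and 8.28 in the scramble arrays. No sh-35 value came within 1 unit of a scramble value. LBR, the lamin B receptor gene, rose by +1.38 (SE 0.10), HELLS, a chromatin remodeller, by +1.27 (SE 0.14) and EZH2, the methyltransferase of histone H3 lysine 27, by +1.11 (SE 0.12). KMT5A, which methylates histone H4, was the member that fell (−0.28 (SE 0.09)), a call lost without sh-35 replicate 2 or 3 and without scramble replicate 2 or 3 (adjusted p 0.053 to 0.085). Histone genes moved both ways, and their probes may not tell near-identical copies apart. Among the 21 histone genes on test, 7 were higher, 4 were lower and 10 missed the threshold. The linker histone gene H1-10 (+0.71 (SE 0.09)) and H4C3 (+0.65 (SE 0.11)) rose most, and H2AC18 fell (−0.57 (SE 0.11)). The count of rises was 4 without sh-35 replicate 2 and 4 without scramble replicate 1.

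Antiviral effector genes induced by interferon were higher with sh-35, with some exceptions. Type I interferon acts through the receptor IFNAR1 and IFNAR2, the kinases JAK1 and TYK2 and a factor that contains IRF9, and it induces a set of antiviral effectors. Of 36 effectors, 23 rose, 4 fell and 9 did not pass, with a median of +0.52 (+0.52 with 3 genes that were below background in scramble at their bounds). IFIT1, which binds foreign RNA, read 8.67, 9.0 and 8.84 in the sh-35 arrays, against 6.91, 6.81 and 7.12 in the scramble arrays, a change of +1.89 (SE 0.14; adjusted p = 1.2e-06). IFI44, a close neighbour and relative of IFI44L, read 9.16, 9.03 and 8.89 in the sh-35 arrays, against 7.62, 7.39 and 7.14 in the scramble arrays, a change of +1.64 (SE 0.12; adjusted p = 1.5e-06). The groups did not overlap for either. IFIT2 (+1.51 (SE 0.11)), IFIT3 (+1.62 (SE 0.13)) and OAS2, an oligoadenylate synthetase (+1.39 (SE 0.19)), rose as well, and OAS1 was at least 1.94-fold higher. ISG15, a ubiquitin-like modifier, read 9.25, 9.11 and 8.34 in the sh-35 arrays, against 8.18, 8.27 and 8.13 in the scramble arrays, so that 2 sh-35 arrays were high and the third lay just above the scramble arrays. Its change was +0.71 (SE 0.19; adjusted p = 0.011). GBP1, a guanylate-binding protein mostly known for its response to interferon gamma, went the other way at 7.89, 7.78 and 7.84 in the sh-35 arrays, against 8.76, 8.74 and 8.64 in the scramble arrays, a change of −0.88 (SE 0.09; adjusted p = 1.0e-05). GBP2, a second guanylate-binding protein gene of the list, rose by +0.88. ADAR, an RNA-editing enzyme with an interferon-induced isoform, fell by 0.54. IFITM3 (+0.05 (SE 0.08)) and BST2 (+0.05 (SE 0.10)), 2 membrane-acting effectors, did not pass. Without sh-35 replicate 1, 2 effectors fell in place of 4.

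**Figure D3:**
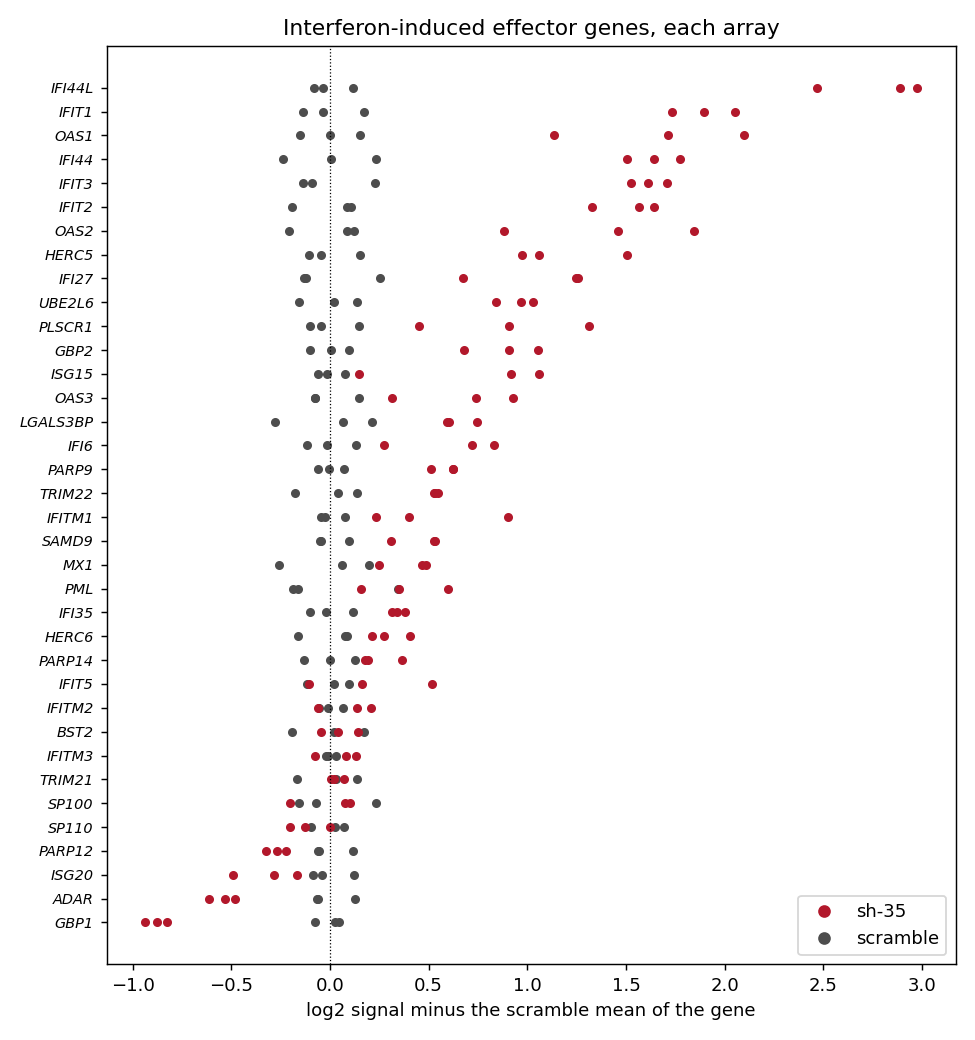
Log2 signal of each array minus the scramble mean of the gene, for 36 interferon-induced effector genes ordered by their change, with sh-35 arrays in red and scramble arrays in grey. IFI44L lies at the top and GBP1 at the bottom, and the groups overlap for genes such as BST2 and IFITM3.

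Upstream of the effectors the changes were smaller. Among signalling genes, IRF9 (+0.72 (SE 0.10)), IRF1 (+0.57 (SE 0.09)), IFNGR1 (+0.44 (SE 0.08)) and JAK1 (+0.35 (SE 0.09)) rose, IRF3, which turns on interferon genes, fell (−0.45 (SE 0.12)), and IRF7 (+0.17 (SE 0.15)) and IFNAR1 (+0.29 (SE 0.14)) did not pass. Among nucleic acid sensors, 3 rose and 3 fell of 10 tested. TLR3, an endosomal receptor for double-stranded RNA, read 8.10, 7.99 and 8.13 in the sh-35 arrays, against 7.09, 6.89 and 7.36 in the scramble arrays, a change of +0.96 (SE 0.11; adjusted p = 3.8e-05). IFIH1, which encodes MDA5, rose by +0.57 (SE 0.10), whereas MAVS, the adaptor downstream of MDA5 and RIG-I, was below background in all sh-35 arrays, with measured means of 6.43 ± 0.20 in sh-35 cells and 7.25 ± 0.13 in scramble cells. CGAS (−0.02 (SE 0.15)) and STING1 (+0.21 (SE 0.09)) did not pass. In antigen presentation by class I molecules, 8 of 15 genes rose and 0 fell, with PSMB8 at +0.72 (SE 0.09), TAPBP, which encodes tapasin, at +0.74 (SE 0.13) and B2M at +0.45 (SE 0.10), while TAP1 did not pass (+0.02 (SE 0.08)).

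Interferon-stimulated response elements, or ISREs, are bound by the IRF9-containing factor. The letters GAAANNGAAA, on either strand, are in capitals in the promoters of IFIT1 (chr10:89392473-89392622, plus strand) and IFI44L (chr1:78620268-78620447, plus strand), which rose most among the effectors with a promoter sequence.
IFIT1: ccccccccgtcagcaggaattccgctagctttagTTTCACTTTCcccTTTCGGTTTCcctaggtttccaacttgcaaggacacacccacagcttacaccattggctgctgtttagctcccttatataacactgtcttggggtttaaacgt
IFI44L: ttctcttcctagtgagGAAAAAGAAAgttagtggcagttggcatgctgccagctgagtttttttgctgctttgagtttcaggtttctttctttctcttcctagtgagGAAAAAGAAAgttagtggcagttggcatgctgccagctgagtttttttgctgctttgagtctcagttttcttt

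The elements began 116 and 103 bases before the start in IFIT1 and 164 and 73 bases before it in IFI44L. Of effectors that rose, 14 of 19 (73.7%) held the letters, and of effectors that did not pass or fell 8 of 11 (72.7%) did, against 2.91% of all genes tested and 3.57% of all promoters.

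Epithelial adhesion and polarity genes were lower with sh-35, although not evenly. Over the lists of junctions, polarity, surface proteases, hemidesmosomes, keratins and epithelial transcription factors, 40 of 65 tested genes fell, 9 rose and 16 did not pass, with a median of −0.40, against 21.4% of all genes lower. CDH1 read 9.62, 9.80 and 9.81 in the sh-35 arrays, against 11.60, 11.65 and 11.54 in the scramble arrays, a change of −1.85 (SE 0.09; adjusted p = 1.1e-07). CDH3, which encodes P-cadherin, the second classical cadherin of these cells, read 10.49, 10.34 and 10.39 in the sh-35 arrays, against 11.80, 11.84 and 11.78 in the scramble arrays, a change of −1.4 (SE 0.08; adjusted p = 2.6e-07). Neither gene overlapped between groups. The catenins that tie cadherins to actin did not follow, with CTNNA1 at −0.06 (SE 0.09) and CTNNB1 at −0.07 (SE 0.10), neither past the threshold. NECTIN3, a nectin of the same junctions, rose (+0.60 (SE 0.13)). JUP, which encodes plakoglobin, a catenin shared by adherens junctions and desmosomes, fell by 1.26 (adjusted p = 1.2e-06).

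Among desmosome genes, 6 of 12 fell and 3 rose, and 3 fell without sh-35 replicate 3. The desmosomal cadherin genes split, with DSC2 (−0.70 (SE 0.09)) lower and DSG2 (+0.18 (SE 0.10)) not past, and so did the plakophilin genes, with PKP3 (−0.69 (SE 0.13)) lower and PKP4 (+0.55 (SE 0.10)) higher. PPL, which encodes the cornified envelope protein periplakin, rose by +0.55 (SE 0.10). In tight junctions, 5 of 6 tested genes fell and 0 rose. CLDN7 read 7.98, 7.79 and 8.08 in the sh-35 arrays, against 9.20, 8.66 and 8.91 in the scramble arrays, and CLDN1 fell by 0.68. MARVELD3 was at least 1.59-fold lower (measured means 5.82 in sh-35 cells and 7.29 in scramble cells; adjusted p = 0.00012). TJP1, which encodes the scaffold ZO-1, did not pass (−0.14 (SE 0.09)). Of apical polarity genes, 4 of 7 fell, CRB3, PRKCZ (−0.65 (SE 0.08)), PRKCI (−0.40 (SE 0.11)) and SCRIB (−0.28 (SE 0.08)). Without scramble replicate 2 the calls of PRKCI (adjusted p = 0.057) and SCRIB (adjusted p = 0.058) were lost, and that of SCRIB also without sh-35 replicate 3 (adjusted p = 0.058). EPCAM read 8.70, 8.75 and 8.75 in the sh-35 arrays, against 10.63, 10.69 and 10.53 in the scramble arrays. ST14, which encodes the membrane protease matriptase, read 7.87, 7.56 and 7.58 in the sh-35 arrays, against 9.0, 9.31 and 9.32 in the scramble arrays. PRSS8, which encodes prostasin, the protease that works with matriptase, fell by 1.36 (SE 0.10), and their inhibitor SPINT2 by 0.89 (SE 0.08). The subunit genes of the epithelial sodium channel moved in the other direction, with SCNN1G at +1.29 (SE 0.12), SCNN1A at +0.34 (SE 0.07) and SCNN1B at least 1.26-fold higher.

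The transcription factors of epithelial identity that were tested were few. GRHL3 ended below background in the sh-35 arrays, with measured means of 6.10 ± 0.33 in sh-35 cells and 7.13 ± 0.50 in scramble cells. KLF5 (−0.77 (SE 0.14)), OVOL2 (−0.76 (SE 0.08)) and TFAP2A (−0.40 (SE 0.08)) fell, KLF4 rose (+0.50 (SE 0.10)) and TFAP2C did not pass (+0.09 (SE 0.09)). GRHL2, ESRP1, TP63 and ELF3 were not tested. FOXA1, a factor of luminal breast cells, was above background in all 3 scramble arrays and in no sh-35 array. Of 11 keratins, 7 fell. KRT14, a basal keratin, read 11.44, 11.38 and 11.41 in the sh-35 arrays, against 12.51, 12.52 and 12.43 in the scramble arrays, a change of −1.08 (SE 0.07; adjusted p = 5.9e-07), while its partner KRT5 did not pass (−0.04 (SE 0.08)). KRT16 (−1.13 (SE 0.10)), KRT15 (−0.74 (SE 0.14)), KRT7 (−0.74 (SE 0.14)) and KRT8 (−0.66 (SE 0.09)) fell, and KRT80 rose (+0.76 (SE 0.16)). All 6 tested genes of hemidesmosomes and laminin-332 fell, with DST (−1.22 (SE 0.14)) and PLEC (−0.63 (SE 0.10)), which encode linkers to keratin filaments, ahead of LAMB3, a laminin-332 chain (−0.45 (SE 0.09)). This count was 3 without sh-35 replicate 1, without sh-35 replicate 3 and without scramble replicate 3. Of the integrins, ITGA2 (−0.66 (SE 0.09)) and ITGA3 (−0.57 (SE 0.09)) fell, the leukocyte integrin gene ITGB2 fell (−1.05 (SE 0.08)), ITGA10, a collagen receptor, rose (+1.66 (SE 0.10)) and ITGB1 did not pass (−0.0046 (SE 0.09)).

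SNAI2, a zinc finger repressor of epithelial genes, binds the E-box letters CACCTG. They are in capitals in the promoter of CRB3 (chr19:6464021-6464270, plus strand), the polarity gene whose brightest probe fell most. This promoter holds 5 of them.
CRB3: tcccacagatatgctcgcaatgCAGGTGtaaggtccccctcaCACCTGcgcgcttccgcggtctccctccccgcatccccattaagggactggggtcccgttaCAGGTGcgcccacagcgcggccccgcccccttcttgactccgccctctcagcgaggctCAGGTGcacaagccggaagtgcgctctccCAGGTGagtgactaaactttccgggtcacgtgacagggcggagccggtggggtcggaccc

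The copies began 228, 208, 147, 89 and 60 bases before the start. Among epithelial junction and surface genes that fell, 5 of 16 (31.2%) held the letters, and among those that rose or did not pass 2 of 13 (15.4%) did, against 17.6% of all genes tested and 20.6% of all promoters. SNAI2 itself read 11.36, 11.67 and 11.46 in the sh-35 arrays, against 11.20, 11.27 and 11.09 in the scramble arrays, a change of +0.31 (SE 0.11; adjusted p = 0.037), and TWIST1, a second factor of mesenchymal cells, rose by +0.43 (SE 0.09). The call of SNAI2 was lost without sh-35 replicate 2 or 3 and without scramble replicate 1 or 3 (adjusted p 0.063 to 0.14). Whether the letters or the level of SNAI2 go with the falls was not tested, and binding was not measured.

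**Figure D4:**
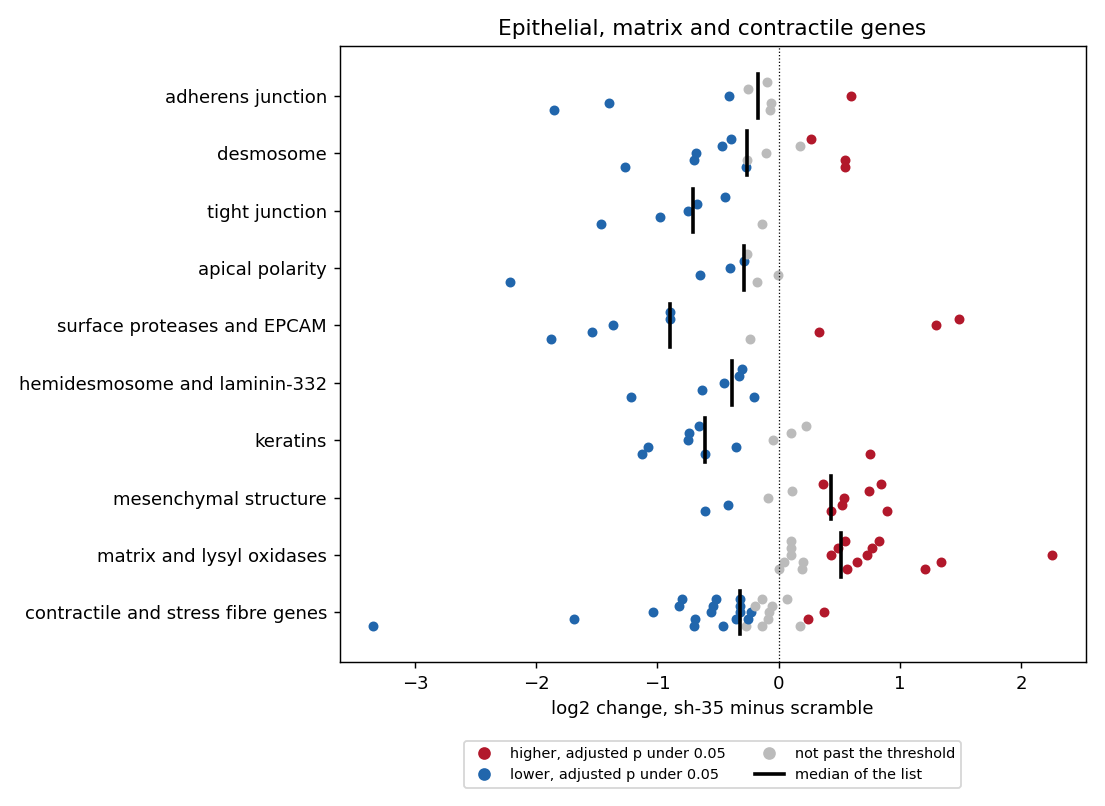
Log2 change, sh-35 minus scramble, of each tested gene in 10 lists of epithelial, mesenchymal, matrix and contractile genes, with higher calls in red, lower calls in blue, genes not past the threshold in grey and the list median as a bar. The median is below 0 for every epithelial list and for contractile genes, at −0.32, and above 0 for matrix genes, at +0.52, and mesenchymal structure.

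Genes of mesenchymal cells and of the matrix were higher for the larger part. Of 11 genes of mesenchymal structure, 7 rose and 2 fell. S100A4 (+0.90 (SE 0.08)), the receptor kinase gene AXL (+0.84 (SE 0.11)), FN1, which encodes fibronectin (+0.52 (SE 0.14)), and VIM, which encodes vimentin (+0.36 (SE 0.08)), rose. CDH2, which encodes N-cadherin, did not pass (+0.11 (SE 0.09)), and FAP (−0.61 (SE 0.10)) and ENG (−0.42 (SE 0.09)) fell. Of 18 matrix genes, 11 rose, 0 fell and 7 did not pass. After LOX came ECM1 (+1.34 (SE 0.14)) and COL4A2, a basement membrane collagen, which read 9.18, 9.12 and 8.73 in the sh-35 arrays, against 7.41, 8.11 and 7.90 in the scramble arrays. Its head-to-head neighbour COL4A1, with which it shares a promoter region, rose by +0.65 (SE 0.10). COL16A1 (+0.83 (SE 0.10)), COL7A1, the anchoring fibril collagen (+0.77 (SE 0.12)), and LAMC1 (+0.54 (SE 0.08)) rose, and TNC (+0.10 (SE 0.15)) and VCAN (+0.20 (SE 0.11)) did not pass. Of the fibroblast markers given above, DCN rose and PDGFRA did not pass (−0.28), while COL1A2, COL3A1 and PDGFRB were undetected in both groups. The part of such cells in these counts was not tested. In the TGF-beta pathway, 6 genes rose and 4 fell of 15. Beside TGFB2, the co-receptor gene TGFBR3 (+0.87 (SE 0.08)), BMP2 (+0.71 (SE 0.10)) and LTBP1 (+0.55 (SE 0.14)) rose, whereas ID3, a target of BMP signals (−0.88 (SE 0.13)), and LTBP3, which stores the latent ligand (−0.89 (SE 0.15)), fell. SMAD3 did not pass (+0.20 (SE 0.09)), and where only probes above background on all 9 arrays were kept, 3 genes of the list rose.

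Actin stress fibres consist of actin, tropomyosin, myosin II and cross-linkers, and they end in focal adhesions. Of 28 contractile and stress fibre genes, 17 fell, 2 rose and 9 did not pass. The per-array median was −0.36 to −0.32 in the sh-35 arrays and −0.05 to +0.07 in the scramble arrays. TPM4, a tropomyosin, read 9.07, 9.02 and 9.02 in the sh-35 arrays, against 9.94, 10.15 and 10.13 in the scramble arrays. ACTN4, which cross-links actin, read 10.25, 10.21 and 10.05 in the sh-35 arrays, against 10.86, 11.25 and 10.88 in the scramble arrays. In both genes every sh-35 array lay below every scramble array, with changes of −1.04 (SE 0.10; adjusted p = 1.2e-05) and −0.83 (SE 0.11; adjusted p = 0.00014). MYL9, a regulatory light chain of myosin II, was at least 2.28-fold lower (measured means 6.12 in sh-35 cells and 7.80 in scramble cells; adjusted p = 6.9e-06). The adaptor genes PXN (−0.69 (SE 0.12)), LIMA1 (−0.70 (SE 0.08)) and TGFB1I1 (−0.54 (SE 0.13)) fell, as did MYH9, the heavy chain of nonmuscle myosin IIA (−0.46 (SE 0.08)). ACTN1, the second alpha-actinin of these cells, did not pass (−0.08 (SE 0.08)), nor did TPM1 (+0.07 (SE 0.09)), TLN1 (−0.14 (SE 0.12)) or MYH10 (+0.18 (SE 0.08)). PDLIM7 (+0.37 (SE 0.12)) and ACTA2 (+0.24 (SE 0.09)) rose. The call of PDLIM7 was lost without sh-35 replicate 1 and without scramble replicate 1 or 3 (adjusted p 0.084 to 0.087), and that of ACTA2 without sh-35 replicate 1 or 3 and without scramble replicate 1 or 2 (adjusted p 0.069 to 0.15).

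SRF, the serum response factor, binds CArG boxes in the promoters of contractile genes and of its own gene. SRF read 9.97, 10.15 and 10.09 in the sh-35 arrays, against 10.73, 10.86 and 11.01 in the scramble arrays, a change of −0.80 (SE 0.10; adjusted p = 6.9e-05). Its promoter (chr6:43171149-43171278, plus strand) holds 2 CArG boxes, in capitals, which read as CArG boxes on both strands.
SRF: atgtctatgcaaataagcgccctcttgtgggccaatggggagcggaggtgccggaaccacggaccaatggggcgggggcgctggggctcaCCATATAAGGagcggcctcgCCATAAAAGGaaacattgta

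They began 30 and 10 bases before the start. Of the contractile genes that fell and had a promoter, 4 of 15 (26.7%) held a CArG box, among them CNN2, SRF and TPM4, against 1.06% of all genes tested and 1.29% of all promoters. The share among contractile genes that did not fall was not counted. Whether the box goes with the fall was therefore not tested, and binding was not measured. The table holds no promoter for TAGLN.

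Plexins bind Rnd proteins and are the receptors of semaphorins. Of 14 genes of plexins, semaphorins and neuropilins, 2 rose, 3 fell and 9 did not pass, and the share called, 35.7%, stands against 41.8% of all genes. PLXNA3 read 7.26, 7.37 and 7.37 in the sh-35 arrays, against 7.92, 8.41 and 8.14 in the scramble arrays, a change of −0.83 (SE 0.12; adjusted p = 0.00022). SEMA3F, a secreted ligand, fell by 0.52, and SEMA6A was at least 1.64-fold lower. NRP1, a co-receptor of plexins, rose by +0.52 (SE 0.09), and SEMA4D, the ligand of plexin-B1, by +0.41 (SE 0.11). PLXNB1 did not pass (−0.47 to +0.04, 95% interval). Among Ras and Rap GTPases, RAP1B read 7.08, 7.30 and 7.39 in the sh-35 arrays, against 8.25, 8.48 and 8.40 in the scramble arrays, a change of −1.12 (SE 0.10; adjusted p = 5.0e-06). RALA fell (−0.24 (SE 0.08)) and RAP2C rose (+0.29 (SE 0.10)), while HRAS (−0.16 (SE 0.10)) and RRAS (−0.11 (SE 0.08)) did not pass. RALA lost its call without any 1 of the 6 arrays (adjusted p 0.055 to 0.10), and RAP2C without any but scramble replicate 2 (adjusted p 0.074 to 0.17).

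Among genes of growth factor signalling, several ligands and targets changed. HBEGF fell as given above, and NRG1, a ligand of ERBB3 and ERBB4, was below background in the sh-35 arrays. LRIG1, which limits EGF receptor signals, read 9.26, 9.28 and 9.32 in the sh-35 arrays, against 8.42, 8.37 and 8.32 in the scramble arrays, a change of +0.92 (SE 0.09; adjusted p = 7.4e-06). EGFR itself did not pass (−0.08 (SE 0.08)). Of 21 ERK feedback and target genes, 8 fell, 2 rose and 11 did not pass, with a median of −0.03. The share called, 47.6%, was close to the 41.8% of all genes. PHLDA1 (−0.90 (SE 0.09)), the phosphatase genes DUSP4 (−0.65 (SE 0.11)) and DUSP6 (−0.38 (SE 0.10)), EGR1 (−0.62 (SE 0.14)) and MYC (−0.43 (SE 0.08)) fell, and SPRY2 (+0.29 (SE 0.10)) and SPRY4 (+0.29 (SE 0.09)) rose. The call of SPRY2 was lost without sh-35 replicate 1 or 2 and without scramble replicate 1 or 3 (adjusted p 0.076 to 0.12), and that of SPRY4 without sh-35 replicate 2 and without scramble replicate 1 or 2 (adjusted p 0.052 to 0.10). FOSL1 (+0.21 (SE 0.09)) and DUSP5 (+0.12 (SE 0.09)) did not pass. YAP-TEAD target genes split evenly, 4 higher and 4 lower of 12. CCN1 read 9.20, 9.26 and 9.44 in the sh-35 arrays, against 10.21, 10.48 and 10.57 in the scramble arrays, a change of −1.12 (SE 0.10; adjusted p = 6.7e-06), and F3, which encodes tissue factor, fell by 1.01, while CCN2, the second classical target, did not pass (+0.04 (SE 0.10)) and LATS2, a kinase that restrains YAP, rose (+0.93 (SE 0.10)).

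Secreted defence proteins were among the larger rises. Of 12 acute-phase and complement genes, 10 rose and 1 fell (2 without scramble replicate 1), with a median of +0.95 (+0.86 with 3 genes that were below background in scramble at their bounds). SERPINA1, which encodes alpha-1-antitrypsin, read 11.68, 11.58 and 11.58 in the sh-35 arrays, against 9.92, 9.58 and 9.85 in the scramble arrays, a change of +1.83 (SE 0.11; adjusted p = 3.2e-07). CFB, complement factor B, read 8.80, 9.0 and 8.51 in the sh-35 arrays, against 7.79, 7.31 and 7.62 in the scramble arrays, and LCN2, an iron-binding defence protein, 8.14, 7.65 and 7.77 in the sh-35 arrays, against 6.91, 6.99 and 6.76 in the scramble arrays. The groups did not overlap for these 3 genes. SAA1 (+0.81 (SE 0.11)) and SAA2 (+0.92 (SE 0.16)), near-identical serum amyloid genes whose probes may not separate them, rose, C1R was at least 1.36-fold higher, and CD55, a complement inhibitor on the cell surface, fell (−0.50 (SE 0.09)). Where only probes above background on all 9 arrays were kept, 6 genes of the list rose. The chemokine genes CXCL1 (+1.18 (SE 0.10)), CXCL8 (+0.75 (SE 0.11)) and CXCL2 (+0.65 (SE 0.09)) rose, and IL24 (−0.78 (SE 0.12)) and CXCL16 (−0.50 (SE 0.07)) fell. In the interleukin-1 family IL1A fell with IL1B, at 12.30, 12.37 and 12.27 in the sh-35 arrays, against 13.21, 13.17 and 13.10 in the scramble arrays, a change of −0.84 (SE 0.07; adjusted p = 4.3e-06). IRAK2, a kinase of the receptor, rose by +0.53 (SE 0.08), and IL18 did not pass (−0.16 (SE 0.09)).

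S100 and antimicrobial genes moved both ways, 6 higher and 5 lower of 15. S100A8, which forms calprotectin with S100A9, read 13.30, 13.15 and 13.12 in the sh-35 arrays, against 12.47, 11.67 and 12.09 in the scramble arrays, a change of +1.11 (SE 0.16; adjusted p = 0.00019), and S100A9 rose by +0.88 (SE 0.17). CAMP (+0.79 (SE 0.18)), PI3, which encodes elafin (+0.70 (SE 0.10)), and SLPI (+0.50 (SE 0.10)) rose. S100A14 read 9.46, 9.15 and 9.0 in the sh-35 arrays, against 10.70, 10.40 and 10.90 in the scramble arrays, a change of −1.46 (SE 0.14; adjusted p = 7.6e-06), and S100A2 (−0.80 (SE 0.08)) and RNASE7 (−0.82 (SE 0.10)) fell. Of the serpins that are not in the acute-phase list, SERPINB13 and SERPINB8 (−0.25 (SE 0.08)) fell and 6 did not pass, among them SERPINB5, which encodes maspin (−0.18 (SE 0.10)). The share called was 25%, against 41.8% of all genes. SERPINB8 lost its call without any 1 sh-35 array and without scramble replicate 3 (adjusted p 0.051 to 0.11). Of 13 tested genes of proteases and their inhibitors, 5 rose and 0 fell, and the share called, 38.5%, was close to the 41.8% of all genes. MMP9 (+0.94 (SE 0.24)), PLAT (+0.62 (SE 0.11)), ADAM19 (+0.55 (SE 0.13)), ADAM10 (+0.55 (SE 0.08)) and TIMP2 (+0.37 (SE 0.10)) rose, whereas PLAU (−0.20 (SE 0.09)) and MMP14 (−0.45 (SE 0.23)) did not pass.

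Many genes of lipid synthesis were lower. Of 19 genes of sterol synthesis and its control, 13 fell, 0 rose and 6 did not pass, with a median of −0.41. MVD read 8.61, 8.87 and 8.63 in the sh-35 arrays, against 9.38, 9.72 and 9.53 in the scramble arrays, and FDPS, which makes farnesyl diphosphate, 10.30, 10.01 and 9.98 in the sh-35 arrays, against 10.30, 11.05 and 10.92 in the scramble arrays. The changes were −0.84 (SE 0.13; adjusted p = 0.0003) and −0.66 (SE 0.17; adjusted p = 0.01). The groups did not overlap for MVD, and for FDPS the highest sh-35 array and scramble replicate 1 lay at the same level to 2 decimals. HMGCS1 (−0.42 (SE 0.09)), LSS (−0.56 (SE 0.09)), CYP51A1 (−0.49 (SE 0.12)) and IDI1 (−0.55 (SE 0.10)) fell, and SQLE (+0.08 (SE 0.11)) did not pass. Of 15 genes of fatty acid synthesis, 8 fell, among them SCD (−0.92 (SE 0.09)), ACLY (−0.47 (SE 0.10)), ACACA (−0.48 (SE 0.09)) and FADS3 (−1.30 (SE 0.10)). ACSL1 (+0.78 (SE 0.12)) and FADS1 (+0.31 (SE 0.08)) rose, and FASN did not pass (−0.18 (SE 0.10)). With median scaling in place of quantile normalization, 13 genes of this list fell.

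Glycolysis and hypoxia genes fell in part. Of 22 glycolysis genes, 9 fell, 2 rose and 11 did not pass, 50% called against 41.8% of all genes. HK2, a hexokinase, read 7.62, 7.93 and 7.34 in the sh-35 arrays, against 9.05, 8.71 and 8.74 in the scramble arrays, a change of −1.20 (SE 0.14; adjusted p = 3.9e-05). PFKFB3 (−1.04 (SE 0.08)), the glucose transporter gene SLC2A1 (−0.77 (SE 0.09)), PFKL (−0.68 (SE 0.17)) and PFKP (−0.60 (SE 0.09)) fell, as did the aldolase genes ALDOC (−0.77 (SE 0.07)) and ALDOA (−0.53 (SE 0.10)) and the pyruvate kinase gene PKM (−0.45 (SE 0.08)), whereas GAPDH (−0.04 (SE 0.10)), TPI1 (−0.07 (SE 0.08)), ENO1 (−0.10 (SE 0.08)) and LDHA (−0.24 (SE 0.09)) did not pass. SLC2A3, a second glucose transporter, rose by +0.77 (SE 0.10), and it was the only rise of the list without sh-35 replicate 1 or 3 and without scramble replicate 2 or 3. Of 17 genes of the hypoxia response, 10 fell and 1, ERO1A (+0.26 (SE 0.08)), rose, a call lost without sh-35 replicate 2 and without scramble replicate 1 or 3 (adjusted p 0.052 to 0.080). BNIP3L, a mitophagy receptor, read 8.82, 8.46 and 8.84 in the sh-35 arrays, against 10.31, 10.21 and 10.17 in the scramble arrays, a change of −1.52 (SE 0.11; adjusted p = 1.0e-06). BHLHE40 (−0.83 (SE 0.09)), NDRG1 (−0.75 (SE 0.09)) and P4HA1 (−0.73 (SE 0.08)) fell, while HIF1A (+0.01 (SE 0.11)) and VEGFA (+0.14 (SE 0.12)) did not pass.

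Lists of the ribosomes, of complex I with ATP synthase and of the proteasome had smaller shares of calls than all genes. Of 66 cytosolic ribosomal protein genes, 5 rose and 2 fell, of 75 mitochondrial ribosome genes 6 rose and 7 fell, of 41 genes of complex I and ATP synthase 5 rose and 6 fell, and of 27 proteasome genes 0 rose and 3 fell. The shares called were 10.6%, 17.3%, 26.8% and 11.1%, against 41.8% of all genes, and single exceptions such as NDUFB8, a complex I subunit (−1.23 (SE 0.08)), were few. The counts of rises in the mitochondrial lists changed by more than 1.5 times without 1 array, to 2 of the mitochondrial ribosome without scramble replicate 2 and to 3 without sh-35 replicate 2. For complex I and ATP synthase, 3 rose without scramble replicate 1, without sh-35 replicate 2 and without sh-35 replicate 3, and 3 fell without sh-35 replicate 3. Of 24 ATF4 targets and tRNA synthetase genes, 10 rose and 6 fell (66.7% called), and 4 rose with median scaling or with the series matrix values. The serine synthesis enzymes, which are targets of ATF4, moved apart: PHGDH, the first enzyme, read 12, 12.19 and 12.15 in the sh-35 arrays, against 10.67, 10.31 and 10.41 in the scramble arrays, and PSPH, the last, 7.16, 7.14 and 7.24 in the sh-35 arrays, against 8.80, 8.53 and 8.55 in the scramble arrays. Their changes were +1.65 (SE 0.10; adjusted p = 3.2e-07) and −1.45 (SE 0.09; adjusted p = 3.6e-07), and PSAT1, between them, rose by +0.44 (SE 0.09). In the unfolded protein response list, 3 of 14 genes fell and 0 rose (21.4% called, against 41.8% of all genes). The chaperone gene HYOU1 fell by 1.5 (adjusted p = 2.4e-06) while HSPA5, the main chaperone of the endoplasmic reticulum, did not pass (+0.14 (SE 0.11)). Of 16 heat shock genes, 1 rose and 6 fell, 43.8% called. HSPA1A (−0.59 (SE 0.09)), DNAJB1 (−0.52 (SE 0.08)) and HSPB1 (−0.39 (SE 0.09)) fell and DNAJB6 rose (+0.65 (SE 0.09)). Of 30 lysosome genes, 7 rose and 7 fell, and the share called, 46.7%, was close to the 41.8% of all genes. LAMP1 fell by 1.08 (adjusted p = 6.8e-07), and LAMP2 did not pass (+0.22 (SE 0.10)).

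Of 20 p53 target genes, 5 rose and 5 fell, 50% called against 41.8% of all genes. RRM2B (+0.84 (SE 0.15)), GDF15 (+0.75 (SE 0.10)) and PPM1D (+0.70 (SE 0.11)) rose, ZMAT3 (−0.82 (SE 0.09)) and SFN, which encodes 14-3-3 sigma (−0.67 (SE 0.09)), fell, and MDM2 did not pass (+0.24 (SE 0.11)). Of 21 genes of the oxidative stress response, 4 rose and 5 fell, and the share called, 42.9%, was at that of all genes, with SOD2 at +0.59 (SE 0.12), GCLM at −0.41 (SE 0.10) and NQO1 at −0.34 (SE 0.09), and 2 rose without sh-35 replicate 1 or without sh-35 replicate 3. The metallothionein genes MT1X (+1.52 (SE 0.09)), MT1G (+0.92 (SE 0.08)) and MT1F (+0.56 (SE 0.09)), near-identical copies that probes may not separate, rose, while MT2A did not pass (−0.03 (SE 0.09)).

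The hairpins share a target and the scramble arrays, so the question of what differs between them was put to the direct contrast of sh-35 with sh-34 in the same model. It called 3814 genes, 42.7% of those tested, 20.7% higher and 22% lower with sh-35. The series matrix values gave another balance, 1832 higher and 1200 lower, in place of 1852 higher and 1962 lower. Most genes of 3 cell division lists were higher with sh-35 than with sh-34. The median of sh-35 minus sh-34 was +0.82 for licensing, +0.80 for G2 to M regulators and +0.88 for the spindle, with 10 of 11, 14 of 16 and 25 of 25 genes higher in this contrast. Against scramble, sh-34 raised 3, 9 and 19 genes of these lists and lowered 1, 0 and 1, with medians of +0.22, +0.29 and +0.35. Tight junction and hemidesmosome lists had medians of −0.02 and −0.07 for sh-35 minus sh-34. In this contrast 2 of 6 tight junction genes were lower and 0 higher, and 3 of 6 hemidesmosome genes were lower and 1 higher. In each list, 5 of 6 genes were lower with sh-34 than with scramble. Apical polarity had 6 of 7 genes lower than with sh-34 and 0 higher (median −0.41). Desmosomes had 7 of 12 lower and 3 higher (−0.36), and surface proteases with EPCAM 4 of 9 lower and 1 higher (−0.43). Keratins had 5 of 11 higher and 3 lower (+0.28). CDC25B, of the G2 to M list, was lower with sh-35 than with sh-34, with a difference of −0.38 (SE 0.13; adjusted p = 0.031), a call lost without sh-34 replicate 1 or 3 and without sh-35 replicate 2 or 3 (adjusted p 0.065 to 0.117). TAGLN read 9.15, 9.28 and 9.27 with sh-35, against 12.03, 12.15 and 11.97 with sh-34, a difference of −2.81 (SE 0.09; adjusted p = 9.7e-09). TMEM9B differed by −2.38 (SE 0.11; adjusted p = 1.1e-07) and PPIAL4A by −2.20 (SE 0.10; adjusted p = 1.1e-07). ACOX2, a peroxisomal oxidase of bile acid precursors, read 9.95, 10.26 and 10.16 with sh-35, against 8.24, 8.20 and 8.15 with sh-34. For IL1B the order was the other way round, with a difference of +0.34 (SE 0.10; adjusted p = 0.018), with sh-34 cells lower still.

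For 274 of the 8931 genes the hairpins were called in opposite directions against scramble. All 274 also passed the direct contrast, which follows from the opposite calls in the same model and is not a separate check. Of these, 139 were higher with sh-35 and lower with sh-34, and 135 were lower with sh-35 and higher with sh-34. PNKD read 9.58, 9.67 and 9.81 with sh-35, 7.0, 7.23 and 7.10 with sh-34 and 9.01, 9.24 and 8.98 with scramble. GXYLT1, a glycosyltransferase of Notch, read 10.25, 9.95 and 10.06 with sh-35, 7.73, 7.63 and 7.69 with sh-34 and 8.57, 8.41 and 8.51 with scramble. In both genes the 3 groups formed separate bands. TPP1, which encodes a lysosomal peptidase, read 8.42, 8.29 and 8.18 with sh-35, 10.21, 10.21 and 10.23 with sh-34 and 9.91, 9.97 and 10.05 with scramble. The histone gene H2BC4 was below background in all sh-35 arrays and above it in 2 scramble arrays, and its sh-35 level was at least 1.19-fold lower than scramble.

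**Figure D5:**
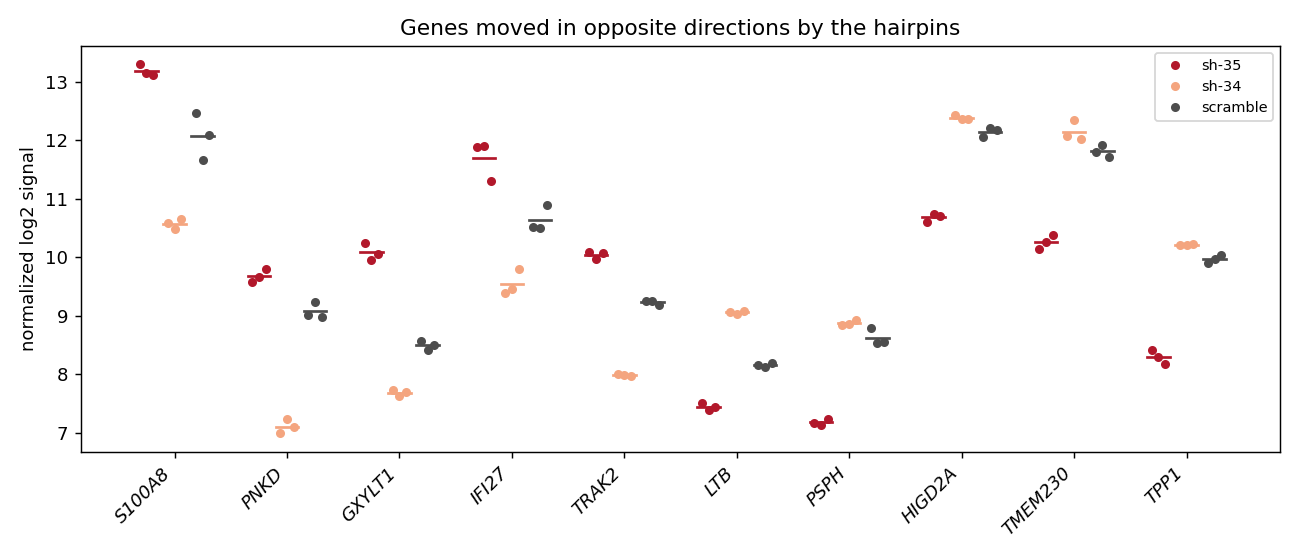
Normalized log2 signal per array of 10 genes called in opposite directions with the hairpins, as points with the mean of 3 arrays as a bar (sh-35 red, sh-34 orange, scramble grey). The first 5 genes are highest with sh-35 and lowest with sh-34, and for the last 5 the order is reversed.

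A gene is represented here by 1 probe, and further probes offer a check within the same RNA. For 2012 genes 2 or more probes passed the filter. Of the 817 whose brightest probe was called, all probes were called the same way in 497, some other probe was not called in 306, and another probe was called in the opposite direction in 14. The widest disagreements were in FAM177A1, LHX6, ITGB1BP1, GNA11 and BRI3BP. GNA11, a G protein subunit, is one of the opposite cases, with +0.36 for its brightest probe and −1.34 for its other probe. The call of the brightest was lost without sh-35 replicate 1 or 3 and without scramble replicate 1 (adjusted p 0.054 to 0.069).

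The authors' deposited table lists 358 probes, each with a change of at least 1.4-fold in both hairpin groups, in the same direction for 338 and in opposite directions for 20. For 245 of them the probe is one of those kept here, and all 245 were also called here, 111 higher and 134 lower with sh-35. In the authors' deposited table the lowest sh-35 fold changes of named genes were −10 for TAGLN, −5.34 for IL1B, −3.95 for CRB3, −3.82 for FOLR3 and −3.73 for CDH1. The highest in the authors' deposited table were 6.08 for SERPINA5, 4.01 for KLRC3, 3.61 for EVI2B, 3.58 for MAMDC2 and 3.48 for MLPH, a gene of melanosome transport.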

How the data were processed

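Trizol-extracted total RNA of 9 samples was read on Illumina bead arrays, per the labels. BeadStudio and Partek are the tools in the submitters' processing notes, and no version of either is stated there. Per the file headers, the deposited signal table gives every sample an intensity and a detection p-value on 48803 probes. The deposited series matrix holds log2 values and served as an alternative. A further table deposited by the authors gives a p-value, a ratio and a signed fold change against scramble for 358 probes, and its analysis of variance columns were not used.

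Gene symbols came from the platform annotation: 28098 probes had 1 symbol, 13 several, and 20692 were not listed. Signals were corrected for background with the normal-exponential model of limma 3.58.1 in R 4.3.3, with noise taken from the detection p-values and an offset of 16, then put on the log2 scale and quantile normalized. Of 12866 probes above background on at least 3 arrays, the brightest per gene was kept. The 9 arrays entered 1 limma model with a mean per group, with 6 residual and 5.42 prior degrees of freedom, and p-values were Benjamini-Hochberg adjusted over 8931 genes. On simulated data for sh-35 against scramble (200 changed genes of 8931), log2 changes of 0.5 and 1 were recovered for 60.5% and 97.5%. Of the calls in these simulations, 7.63% and 6.25% were false. With 200 changed genes the adjusted threshold is stricter than with the 3731 called in the data, so recovery in the data was not measured. Precision is limited by the number of arrays.

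Named genes were RND1, RND2 and RND3, the 15 largest rises and falls, examples among the 8 largest differences from sh-34 and the 8 smallest calls per direction, up to 8 list members per direction by p, members against their list, the ends of the authors' fold changes and 5 genes with discordant probes. GBP2 was named beside GBP1 after its value was seen. Not every gene the rule allows is named, and members given as not past the threshold were chosen after their values were seen. Results on some genes and lists are not reported here. The comparison and its gene lists were chosen with earlier results of these data known. List medians "at their bound" set a gene that was below background in all arrays of 1 group to its lower bound, or to 0 where no bound above 1 exists. Promoters are RefSeq sequences of GRCh38.p14. Coordinates of genes are otherwise not given, since no deposited table names a genome build.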

Additional observations from a re-analysis of the deposited data

Results flagged for a closer look

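For 139 genes the level was higher with sh-35 and lower with sh-34 than in scramble, and for 135 it was lower with sh-35 and higher with sh-34. The direct contrast of sh-35 with sh-34 was past the threshold for each, which follows from the opposite calls. The hairpin groups share the scramble arrays. Among genes above background on all 9 arrays, the largest such differences, sh-35 minus sh-34 on the log2 scale, were +2.62 for S100A8, +2.57 for PNKD, +2.40 for GXYLT1, +2.15 for IFI27 and +2.05 for TRAK2. In the other direction they were −1.92 for TPP1, −1.89 for TMEM230, −1.70 for HIGD2A, −1.69 for PSPH and −1.61 for LTB. S100A8 read 13.30, 13.15 and 13.12 with sh-35, 10.58, 10.48 and 10.65 with sh-34 and 12.47, 11.67 and 12.09 with scramble. With 3 samples in each group, no single sample was tested as an outlier.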

How the results depend on the processing

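The number of genes changed with sh-35 against scramble was 3731, and it was 3182 to 3862 under 12 alternatives: 2 other normalizations (cyclic loess and median scaling), 2 changes of background correction (an offset of 50 and none), the authors' log2 values in the series matrix, 3 filters for dim probes, averaged probes, the 6 compared arrays alone, array weights and a replicate block. Under median scaling 1424 were higher and 2056 lower, in place of 1821 and 1910. Leaving out 1 array gave 3231 to 3434. For sh-35 against sh-34 the count was 3814, with 3032 to 3932 under these alternatives and 3227 to 3370 without 1 array. Asking for at least a 1.4-fold change as well lowered the counts to 1900 and 1909 and the called list members from 563 to 389. Under median scaling and with the series matrix values, 4 of the ATF4-linked genes and 3 lysosomal genes rose, in place of 10 and 7; in the EGF family list 2 fell with the series matrix values in place of 4, and 5 plexin and semaphorin genes fell in place of 3 with no filter. No gene changed direction among calls, except 2 in each comparison when a gene's probes were averaged. Single results that reversed were the list medians of interferon sensors (−0.0044 to 0.1648 without 1 array, reversed without scramble replicate 1), YAP-TEAD targets (−0.0354 with median scaling) and the mitochondrial ribosome (−0.0748 with median scaling, −0.0369 with the series matrix values), and FAM177A1 (−0.79), GNA11 (−0.49) and LHX6 (+0.86) when probes were averaged, and the cause was not tested. The medians of 5 further lists, each smaller than its spread between arrays, also changed sign under at least 1 alternative (TGF-beta pathway, plexins and semaphorins, antimicrobial and S100 genes, complex I with ATP synthase, cytosolic ribosomal proteins). Equal replicate numbers did not link samples of the groups (correlations of deviations −0.0013, 0.050 and 0.014), and with the replicate block 3688 and 3770 genes were called. A chip as a block was not run, because the file headers name no chip. RND1 lies below background. In the simulation with 200 changed genes, log2 changes of 0.5 were recovered for 60.5%, a setting with far fewer changed genes than were called in the data.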
